A study of Mus musculus with 30 samples.

Results

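Guanylate-binding proteins (GBPs) and immunity-related GTPases (IRGs) were followed in bone marrow (BM) and in adipose tissue macrophages (ATMs) of transplanted mice. The 10 genes were taken by symbol from the deposited count tables: the 8 GBP genes *Gbp2*, *Gbp3*, *Gbp4*, *Gbp5*, *Gbp6*, *Gbp7*, *Gbp8* and *Gbp9* and the 2 IRG genes *Irgm1* and *Igtp*. All 10 were found in both tables, among 13353 genes in BM and 17059 in ATMs. CD45.2+ marrow cells of Shp2 E76K/+;LysM-Cre+ donors, which carry an activating mutation of the phosphatase Shp2 switched on by a Cre that is active in myeloid cells, were mixed in equal number with CD45.1+ Boy/J marrow and given to lethally irradiated recipients. The recipients were WT mice or leptin-deficient, obese *Ob/Ob* mice of the C57BL/6J background. Beginning 8 weeks after transplantation, the *Ob/Ob* recipients received for 30 days vehicle (Vehicle), the GLP-1 receptor (GLP-1R) agonist beinaglutide at 3 mg/kg, an anti–IL-17A antibody at 200 µg per mouse 3 times a week, or both agents (Combo). Whether the WT recipients were given vehicle, and when they were sampled, is not stated in the sources used here. WT and Vehicle may therefore differ in these respects as well. Each of the 5 groups had 3 libraries of whole BM and 3 of F4/80+ cells sorted from visceral fat, called biological replicates in the labels. The labels give all samples as C57BL/6J, both sexes, aged 12–14 weeks and of 1 batch, and no donor or recipient genotype for a single sample, so a difference in donor between WT and Vehicle cannot be told apart from a difference in recipient. The methods of the paper give a younger age for the recipients at irradiation, so the time to which the labelled age refers is uncertain. The *Shp2* mutation is a point mutation and the *Ob* allele still gives a transcript, so that neither genotype can be checked from gene counts.

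GBPs are large GTPases that interferons, above all interferon-γ (IFN-γ), induce in macrophages and many other cells. They assemble on the membranes of intracellular bacteria and on parasite vacuoles, open them, and expose bacterial lipopolysaccharide to the noncanonical inflammasome. IRGs are smaller GTPases of the same defence. The regulatory IRGs, *Irgm1* and *Igtp* (also known as Irgm3), sit on the membranes of the cell itself and keep the effector IRGs and GBPs inactive there, while the effector IRGs such as *Iigp1* and *Tgtp1* load onto the foreign vacuole. Interferons act on the promoters of both families through the GAS element and through the ISRE, the latter bound by IRF1 among others.

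The 4 genes of the chromosome 3 cluster and both IRG genes were present in the RefSeq promoter table for GRCm38.p6, which holds 300 bases for each start, 250 before it and 50 after. *Gbp4*, *Gbp6*, *Gbp8* and *Gbp9* had no entry. The letters of the ISRE (GAAA, 2 free bases, GAAA) and of the GAS element (TTC, 3 free bases, GAA) were sought on both strands. The stretches with the matches are shown because all 6 genes rose in Vehicle and fell with each treatment, and each is printed 5′ to 3′ on the strand of the gene with 7 bases on either side where the window allowed, the matches being in capitals.
Gbp2, chr3:142620597-142620620, plus strand: cttttagTTTCACTTTCactgtct
Gbp3, chr3:142559992-142560021, plus strand: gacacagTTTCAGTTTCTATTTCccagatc
Gbp5, chr3:142496684-142496897, plus strand: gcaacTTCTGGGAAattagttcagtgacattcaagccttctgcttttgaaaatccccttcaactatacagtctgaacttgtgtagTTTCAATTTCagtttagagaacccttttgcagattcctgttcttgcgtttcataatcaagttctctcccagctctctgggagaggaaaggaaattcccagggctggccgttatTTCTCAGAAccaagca
Gbp7, chr3:142530223-142530299, plus strand: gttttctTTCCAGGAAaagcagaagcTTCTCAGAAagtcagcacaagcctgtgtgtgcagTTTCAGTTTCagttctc
Irgm1, chr11:48871428-48871457, minus strand: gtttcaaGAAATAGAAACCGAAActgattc
Igtp, chr11:58199504-58199538, plus strand: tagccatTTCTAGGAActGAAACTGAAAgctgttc
ISRE letters were present in a promoter of all 6 genes with an entry, against 3.993% of the 27025 genes in the table. *Gbp3* and *Irgm1* each held 2 overlapping ISRE matches, and a second annotated *Gbp3* promoter held none. GAS letters were present for *Gbp5*, *Gbp7* and *Igtp*, which therefore held both kinds, against 9.554% of all genes for GAS and 0.6142% for both kinds. The ISRE match lay 59 to 50 bases before the RefSeq start in *Gbp2* and 34 to 25 bases before it in *Igtp*. In the GENCODE annotation, 19 of the 24 printed bases of *Gbp2* and all 30 of *Irgm1* lie within exons of these genes. Their annotated starts therefore differ from those of RefSeq. A match describes the letters only, and binding was not measured.

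**Figure D1:**
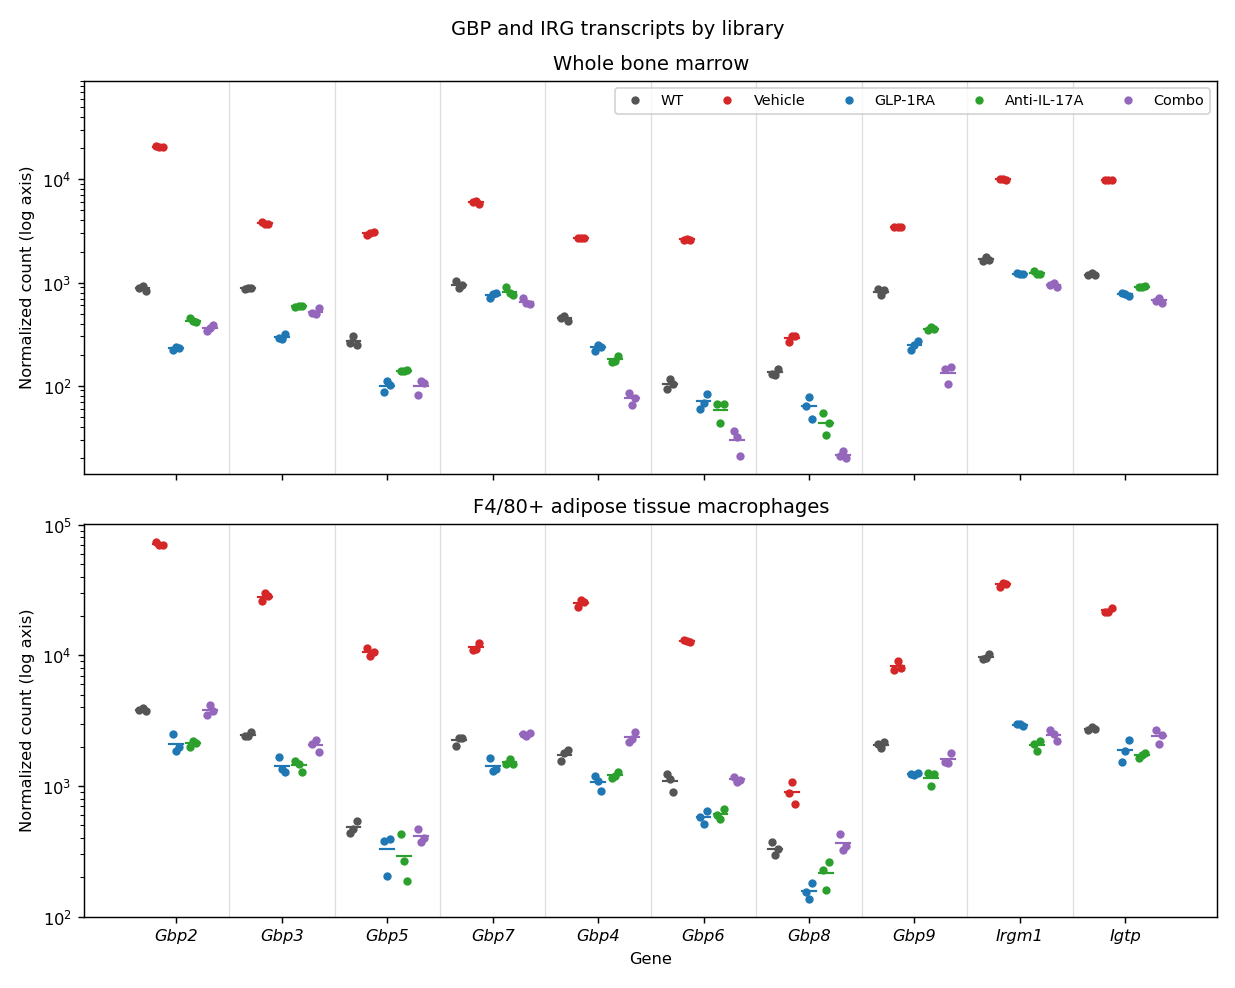
Normalized counts (log axis) of the 10 genes in every library of BM (top) and ATMs (bottom). Points are libraries, 3 per group, bars are group means, and colours are the 5 groups. The 3 Vehicle libraries lie above the 12 other libraries of the tissue for each gene.

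The genes lie in 3 places of the GRCm38 genome (GENCODE M21 coordinates). *Gbp5* (142493978–142522344), *Gbp7* (142530342–142550149), *Gbp3* (142560026–142573209) and *Gbp2* (142620602–142638008) follow each other on the plus strand of chromosome 3. *Gbp8* (105014150–105139540), *Gbp9* (105077630–105139539), *Gbp4* (105115767–105139586) and *Gbp6* (105270702–105293698) lie on the minus strand of chromosome 5, the first 3 of them overlapping. *Irgm1* (48861968–48871683, minus strand) and *Igtp* (58199556–58207591, plus strand) are on chromosome 11. Counting ignored strand and credited a read to every gene it overlapped, so genes with shared exons share reads. *Gbp6* is the least certain, because 29.0% of its exon length overlaps the gene model *Gm43302* and 64.5% of its 100-base stretches occur in other genes as well. The shared exon length was 11.3% for *Gbp7*, 8.01% for *Igtp* and at most 1.77% for the other members.

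Compared per length, as CPM per kilobase of exon (CPM being a count scaled to a common library total), *Gbp2* was the most abundant member in Vehicle, with 237 ± 2.13 in BM and 855 ± 25.5 in ATMs (mean ± SD, n = 3). *Igtp* followed with 140.4 ± 1.14 and 329 ± 14.8, and *Irgm1* with 49.9 ± 0.556 and 181 ± 7.17, less than *Gbp3* in ATMs (260.4 ± 18.0). *Gbp8* was the least abundant, with 2.43 ± 0.185 and 7.88 ± 1.54. In WT the order was different. *Irgm1* (50.3 ± 2.37) and *Gbp2* (46.1 ± 1.27) led in ATMs and *Igtp* (16.99 ± 0.478) in BM, while *Gbp2* (10.1 ± 0.66) came next in BM. Elsewhere, levels are normalized counts, that is counts scaled to the mean effective library size of the tissue, and are comparable for a gene between groups of a tissue but not between genes.

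BM libraries held 31086184 to 39925495 counts and ATM libraries 24876074 to 45300263. Replicates varied by 3.51% in BM and by 32.5% in ATMs (biological coefficient of variation), so that smaller differences passed the test in BM. Calls required a false discovery rate (FDR, Benjamini-Hochberg) below 0.05 and a log2 fold change beyond 1 in either direction, in a fit of all genes of the tissue. All p-values beside single genes are so adjusted. In bulk samples, less RNA per cell and fewer cells of a type cannot be told apart.

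In BM, all 10 genes rose in Vehicle compared with WT. *Gbp2*, which is recruited to parasite vacuoles, was at 893, 933 and 819 normalized counts in the 3 WT libraries and at 21012, 20741 and 20654 in the Vehicle libraries. The Vehicle libraries agreed closely with each other and lay far above the WT libraries, with a ratio of group means of 23.6 (log2 fold change 4.56 ± 0.04 (SE), adjusted p = 5.7e-48). *Gbp6* was at 92.6, 116 and 103 in WT and 2600.2, 2644 and 2614 in Vehicle. Its rise was the largest of the 10 on the log2 scale (4.66 ± 0.09 (SE), adjusted p = 5.8e-35) and close to that of *Gbp2*.

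*Gbp5*, which promotes inflammasome assembly, rose by 3.47 ± 0.07 (log2 ± SE), from 271 ± 28.1 to 2998 ± 121 normalized counts (mean ± SD, n = 3). The regulatory IRG gene *Igtp* rose by 3.05 ± 0.04, from 1196 ± 33.7 to 9884 ± 80.1. *Irgm1*, whose loss leaves mice with failing hematopoiesis during infection, stood at 1636, 1759.6 and 1661 in WT and 10121, 10201 and 9979 in Vehicle, a rise of 2.58 ± 0.04. The rises of both IRG genes lay within the range of the GBP genes. Among the other GBP genes, the log2 fold change was 2.64 for *Gbp7*, 2.58 for *Gbp4*, 2.09 for *Gbp3* and 2.09 for *Gbp9*. *Gbp8* was the exception in size, at 129.9, 128 and 145 in WT and 265, 306 and 301 in Vehicle (1.12 ± 0.14 (SE), adjusted p = 5.2e-09), and it was close to the fold limit. Marker lists of the marrow moved as well. B cell markers fell, with 9 of 10 called lower and a sum of 1412–1435 CPM in WT and 426–449 in Vehicle. Neutrophil markers summed to 91335–99981 and 93173–95840.2, with 1 of 9 called lower and a median log2 fold change of −0.42. Of 12 monocyte and macrophage markers, 5 were called higher and 2 lower (median 0.58), although their sum was 14102–14374 and 7037–7169, most of it from *Lyz2* (12886 CPM in WT and 3462 in Vehicle). The part of cell makeup in the rise was not tested. The 10 of 10 genes called higher compare with 9.44% of all 13353 genes. Counting both directions, 2598 genes were called in this comparison. The WT and Vehicle libraries did not overlap for any of the 10, as for 75.8% of all genes.

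Every one of the 10 genes fell in BM with each treatment when compared with Vehicle. The 3 comparisons share the Vehicle libraries and are therefore given side by side. With the GLP-1R agonist, *Gbp2* was at 221, 238 and 234 normalized counts, and Vehicle was 90.1 times that level. With the antibody it was at 451, 419.8 and 415, and with Combo at 338, 365 and 387. All 9 treated libraries lay below the WT libraries. The log2 fold change of *Gbp2* against Vehicle was −6.49 ± 0.05, −5.60 ± 0.04 and −5.84 ± 0.04 in these 3 groups. Over the 10 genes, the log2 fold changes ranged from −6.49 to −2.19 (median −3.68) with the GLP-1R agonist, from −5.60 to −2.67 (median −3.36) with the antibody and from −6.46 to −2.84 (median −4.29) with Combo. The median over all genes was 0.01, 0.01 and 0.02. The share of all genes called lower was 9.08%, 8.46% and 11.1%, against 10 of 10 members each time. No treated library overlapped a Vehicle library for any member, as for 75.5%, 76.0% and 75.7% of all genes.

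Treated BM did not stop at the WT level. *Gbp4* was at 455, 472 and 423 normalized counts in WT, 217, 251 and 238 with the GLP-1R agonist, 172, 174 and 193 with the antibody and 85.4, 64.6 and 76.2 with Combo. Every treated library lay below every WT library, and the Combo libraries lay below those of either single agent. *Gbp8* gave the same order of groups, at 129.9, 128 and 145 in WT, 63.7, 78.0 and 47.0 with the GLP-1R agonist, 53.8, 33.3 and 43.5 with the antibody and 20.6, 23.3 and 19.8 with Combo, although the libraries of the single agents overlapped.

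Compared with WT, Combo BM was called lower for 6 genes, against 9.93% of all genes: *Gbp8* (−2.65 ± 0.21, log2 ± SE), *Gbp9* (−2.62 ± 0.09), *Gbp4* (−2.58 ± 0.10), *Gbp6* (−1.80 ± 0.18), *Gbp5* (−1.45 ± 0.11) and *Gbp2* (−1.28 ± 0.05). The GLP-1R agonist group was called lower than WT for 5, against 8.62% of all genes, namely *Gbp2* (−1.93), *Gbp9* (−1.73), *Gbp3* (−1.58), *Gbp5* (−1.44) and *Gbp8* (−1.08). The antibody group was called lower for 4, against 4.02%, namely *Gbp8* (−1.63), *Gbp4* (−1.32), *Gbp9* (−1.19) and *Gbp2* (−1.05). With no limit on the fold change, all 10 genes were lower than WT at the same FDR in each treated group, against 38.1%, 33.9% and 37.2% of all genes for the GLP-1R agonist, the antibody and Combo. Close to the fold limit, *Gbp8* was no longer called with the GLP-1R agonist without replicate 3 of that group (−0.92), nor *Gbp2* with the antibody without WT replicate 2 (−0.99), whereas *Gbp5* was called with the antibody without WT replicate 3 (−1.01). The smallest of these differences were those of *Gbp7* (−0.23 with the antibody and −0.34 with the GLP-1R agonist). Summed marker levels of treated BM also differed from WT. Group medians are given for WT, the GLP-1R agonist, the antibody and Combo. Monocyte and macrophage markers were at 14265, 4170, 7517 and 7703.5 CPM. B cell markers were at 1422, 144, 448 and 140 CPM, and neutrophil markers at 94663, 65716, 77258 and 109398 CPM. Their part in levels below WT was not tested.

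Between treatments in BM, the genes called in Combo against a single agent were all of chromosome 5, but only *Gbp4* and *Gbp8* were called against both agents. Combo was lower than the GLP-1R agonist for *Gbp4* (−1.64 ± 0.11), *Gbp8* (−1.57 ± 0.24) and *Gbp6* (−1.24 ± 0.20), all on chromosome 5 (3 of 10, against 8.57% of all genes). The fourth gene of that cluster, *Gbp9*, was at −0.89, while *Gbp2* (0.65) and *Gbp3* (0.83) of chromosome 3 had the opposite sign without reaching the fold limit. Combo was lower than the antibody for *Gbp9* (−1.42 ± 0.10), *Gbp4* (−1.25 ± 0.11) and *Gbp8* (−1.02 ± 0.25), again on chromosome 5 (3 of 10, against 4.63%). The GLP-1R agonist group was lower than the antibody group for *Gbp3* (−1.003 ± 0.06, 1 of 10, against 3.41%), at the fold limit itself and not called without GLP-1R agonist replicate 1 or 2 or antibody replicate 2 (−0.98, −0.97 and −0.99). In Combo against the antibody, *Gbp8* was not called without antibody replicate 1 (−0.85) or Combo replicate 3 (−0.98), and *Gbp6* was called without antibody replicate 2 (−1.16) or Combo replicate 1 (−1.14) or 2 (−1.03). Counts were low in the Combo libraries, at 19 to 22 for *Gbp8* and 20 to 35 for *Gbp6*. Of the 100-base stretches of *Gbp6*, 64.5% occur in other genes as well. The shared position was noticed after the values were seen, and it was not tested.

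**Figure D2:**
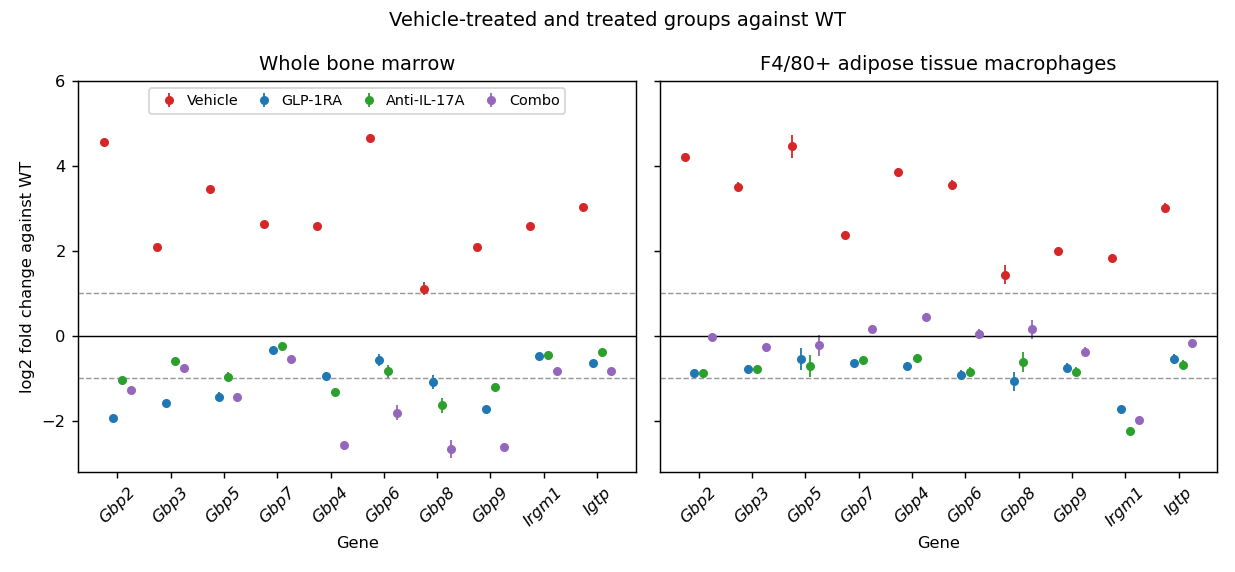
Log2 fold change of Vehicle and of the 3 treated groups against WT for each gene in BM (left) and ATMs (right). Points are estimates from edgeR, bars are SEs where larger than the points, and dashed lines mark the fold limit of 1. In BM all 30 treated points lie below 0, whereas in ATMs the Combo points lie between −0.37 and 0.44 except that of *Irgm1* at −1.98.

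In ATMs, the 10 genes also rose in Vehicle compared with WT (10 of 10 called higher, against 12.5% of all genes). *Gbp2* was at 3828, 3962 and 3752 normalized counts in WT and 73864, 69922 and 70483 in Vehicle, a ratio of means of 18.6 (4.21 ± 0.10 (SE), adjusted p = 6.2e-15). *Gbp5* had the largest log2 fold change (4.47 ± 0.27) with the widest error, from 482 ± 50.3 to 10665 ± 703. *Gbp4*, at 1565, 1783 and 1874 in WT and 23333, 26638 and 25488 in Vehicle, rose by 3.85 ± 0.11. *Gbp6* rose by 3.56 ± 0.12, *Gbp3* by 3.52 ± 0.11, *Igtp* by 3.01 ± 0.12, *Gbp7* by 2.37 ± 0.09 and *Gbp9* by 2.00 ± 0.10.

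*Irgm1* and *Gbp8* rose least in ATMs. *Irgm1* already stood at 9391, 9493 and 10228 in WT, which was the highest WT level per length of the 10, and at 33299, 35868 and 35468 in Vehicle (1.85 ± 0.07). *Gbp8* was at 373, 295 and 329 in WT and 884, 1083 and 733 in Vehicle (1.44 ± 0.23 (SE), adjusted p = 5.9e-05). The WT and Vehicle libraries did not overlap for any of the 10 genes, as for 62.9% of all genes. The median log2 fold change of the members was 3.26, and that of all genes −0.21.

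The sorted cells of the groups differed in markers of other cells. Over 9 neutrophil markers, the summed level was 219.6–242 CPM in WT and 18958–20202 in Vehicle, then 157–163 with the GLP-1R agonist, 315–323 with the antibody and 9976–10291 with Combo (9 of 9 called higher in Vehicle against WT, against 12.5% of all genes). The summed level of the 10 GBP and IRG genes in the same libraries was 785–826, 6700.3–6880.1, 376–418, 363–377 and 573–581 CPM. Both sums were highest in Vehicle. Combo had a neutrophil sum far above that of WT and a GBP and IRG sum below it. *Irgm1* was at 292 CPM in WT and 74.2 in Combo and made up most of that lower sum. Compared with either single agent, both sums were higher in Combo. Of 12 monocyte and macrophage markers, 4 were called higher and 5 lower in Vehicle against WT, and *Adgre1*, which encodes F4/80, the sorted antigen, was at 6913 in WT, 1404 in Vehicle, 12939 with the GLP-1R agonist, 29035 with the antibody and 13285 with Combo, all as normalized counts. *Csf1r*, the receptor for the main macrophage growth factor, was −3.52 (log2) in Vehicle against WT. Adipocyte markers summed to 1582–1605 CPM in WT and 4311–4584 in Vehicle (2 of 8 called higher and 4 lower), stromal and endothelial markers to 13984–14769 and 6390.2–6665 (2 of 8 higher and 3 lower), and B cell markers to 372–448 and 118–131 (7 of 9 lower). Erythroid markers summed to 3863–4085 and 6710.1–6804 (1 of 4 higher). Counting both directions, 6034 of all 17059 genes were called in Vehicle against WT, so that calls in either direction were common. Epididymal and spermatid markers summed to 3039.6–3195 CPM in WT and 1.04–1.81 in Vehicle, where *Adam7*, *Lcn5*, *Tnp1* and *Prm2* were at 0, and pancreatic acinar markers reached 963–979 CPM in Combo against 7.86–12.4 in WT. The part of these cells in the levels of the GBP and IRG genes was not tested.

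**Figure D3:**
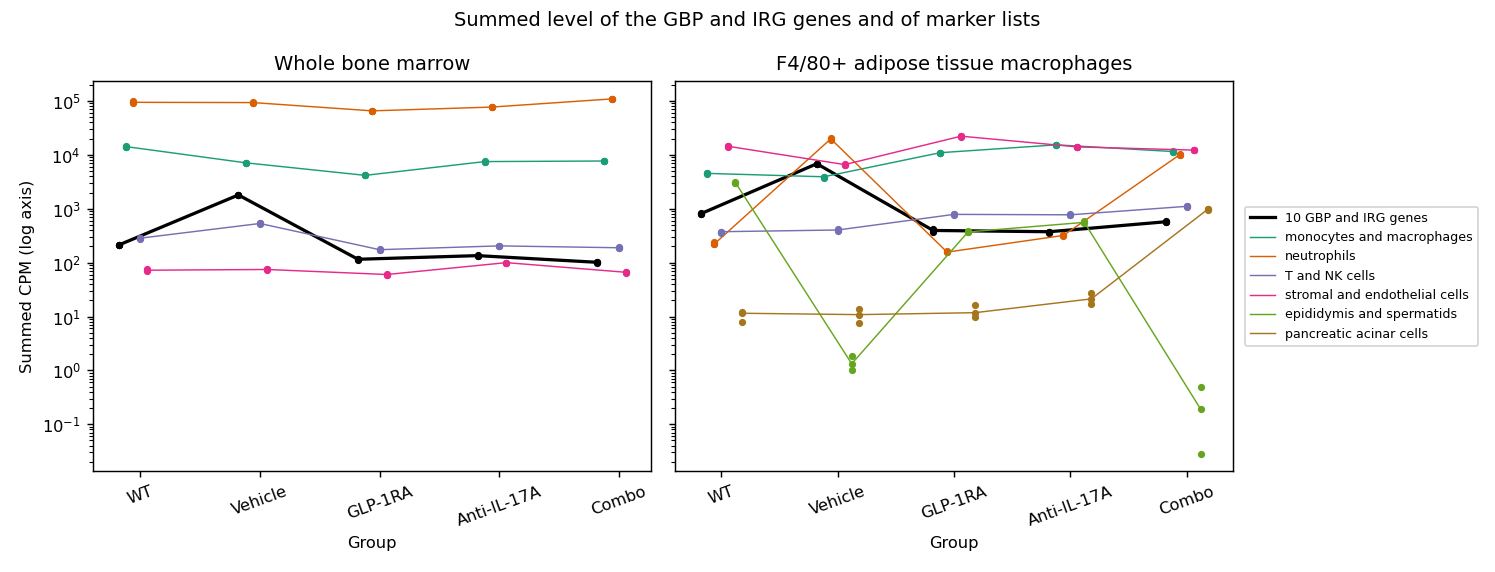
Summed level in CPM (log axis) of the 10 GBP and IRG genes (thick black line) and of marker lists, in BM (left, epididymal and pancreatic lists not drawn) and ATMs (right). Points are libraries, 3 per group, and lines join group medians. The GBP and IRG sum peaks in Vehicle in both tissues, while the neutrophil sum of ATMs is high in Vehicle and in Combo.

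With treatment, all 10 genes fell in ATMs in comparison with Vehicle (10 of 10 called lower in each group, against 10.9% of all genes with the GLP-1R agonist, 13.1% with the antibody and 12.2% with Combo). *Gbp2* was at 2484, 1839.7 and 1984 normalized counts with the GLP-1R agonist, 2004, 2205 and 2143 with the antibody and 3499.6, 4177 and 3747 with Combo. The Combo libraries lay above those of both single agents and around those of WT. Against Vehicle the log2 fold change of *Gbp2* was −5.08 ± 0.10, −5.08 ± 0.10 and −4.23 ± 0.10. *Gbp4* was at 1194, 1084 and 919.8, 1147, 1190.1 and 1286 and 2189, 2305 and 2605 in the same order of groups. *Gbp8* was at 154, 137 and 182, 227, 160.0 and 264 and 433, 326 and 347, and it fell least of the 10 in each group (−2.51, −2.05 and −1.29). Over the 10 genes the median log2 fold change was −3.93, −4.19 and −3.47, against 0.19, 0.17 and 0.00 over all genes. No treated library overlapped a Vehicle library for any member, as for 59.4%, 61.5% and 52.5% of all genes.

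*Irgm1* separated from the other 9 genes in treated ATMs. It was at 9391, 9493 and 10228 normalized counts in WT, 3011, 2961 and 2892 with the GLP-1R agonist, 2115, 1857 and 2195 with the antibody and 2669, 2518 and 2196 with Combo. Every treated library lay far below every WT library. The log2 fold change of *Irgm1* against WT was −1.72 ± 0.07, −2.24 ± 0.07 and −1.98 ± 0.07 (± SE), with adjusted p = 3.7e-11, 1.5e-12 and 6.3e-12. The other regulatory IRG gene among the members, *Igtp*, was at 2740.3 ± 80.6 in WT and 2426 ± 302 in Combo (−0.18 ± 0.11 (SE), adjusted p = 2.2e-01). *Irgm2*, a regulatory IRG gene outside the members, had a lower mean than WT in each treated group of ATMs, as *Irgm1* did (values below).

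*Irgm1* was the only member called in Combo ATMs against WT (1 lower of 10, against 14.5% of all genes). The estimates of the other 9 lay between −0.37 (*Gbp9*) and 0.44 (*Gbp4*), and for *Gbp2* (−0.01 ± 0.09 (SE), adjusted p = 9.1e-01) and *Gbp6* (0.04 ± 0.11 (SE), adjusted p = 8.0e-01) they were near 0. Without the fold limit, *Gbp3*, *Gbp9* and *Irgm1* were lower at the same FDR (3, against 23.2%) and *Gbp4* was higher (adjusted p = 0.0016). The GLP-1R agonist group was called lower than WT for *Gbp8* (−1.07 ± 0.23) and *Irgm1*, 2 of 10 against 7.42% of all genes, and the antibody group for *Irgm1* only, against 9.04%. Without the fold limit 9 genes were lower than WT with the GLP-1R agonist (all but *Gbp5*, against 15.5% of all genes) and 10 with the antibody (against 18.1%), by −0.53 to −0.86 for the 9 genes other than *Irgm1* with the antibody. The call of *Gbp8* rested on single libraries, since its log2 fold change was −0.98 without WT replicate 1 and −0.98 without GLP-1R agonist replicate 2, while *Gbp6* (−1.04) and *Gbp2* (−1.01) were called without WT replicate 3 and GLP-1R agonist replicate 1. *Gbp5* was called lower with the antibody (−1.08) once antibody replicate 1 was left out.

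In ATMs, Combo stood above the single agents for most of the genes. It was called higher than the GLP-1R agonist group for *Gbp4* (1.15 ± 0.10) and *Gbp8* (1.22 ± 0.23), 2 of 10 against 5.38% of all genes, and without the fold limit for 8 against 15.2%. *Gbp6* was called as well without GLP-1R agonist replicate 3 (1.04). *Irgm1* had the opposite sign (−0.26 ± 0.07). None was called higher than with the antibody by edgeR or by DESeq2 (0 of 10 against 3.73%), although 9 of 10 passed both an unadjusted p of 0.05 and the FDR without the fold limit (against 10.7%), *Gbp4* being at 0.97 ± 0.10, and called at 1.02 without antibody replicate 3 or Combo replicate 1. Between the single agents none was called by either tool (0 higher against 4.88% and 0 lower against 3.22% of all genes). Only 1, *Irgm1* (0.52 ± 0.07), passed an unadjusted p of 0.05, and it also passed the FDR without the fold limit (adjusted p = 4.4e-05).

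The difference between tissues was tested for each gene as an interaction in a fit of all 30 libraries over the 13076 genes in both tables. For Vehicle against WT, 6 of 10 genes differed between tissues (FDR below 0.05), against 56.0% of all genes. *Gbp3* (1.43 ± 0.12, ATM minus BM, log2 ± SE), *Gbp4* (1.27 ± 0.12) and *Gbp5* (1.00 ± 0.28) rose more in ATMs, and *Gbp6* (−1.09 ± 0.18), *Irgm1* (−0.73 ± 0.08) and *Gbp2* (−0.34 ± 0.10) rose more in BM. These shares are close to those of all genes, and the signs were mixed. The same was so for the GLP-1R agonist (6 of 10 against 53.4%) and the antibody (7 of 10 against 56.4%). With the GLP-1R agonist, *Gbp2* (1.40 ± 0.11) and *Gbp9* (1.07 ± 0.14) fell more in BM, and *Gbp4* (−1.05 ± 0.13) fell more in ATMs. With the antibody, *Gbp3* (−1.65 ± 0.12) and *Irgm1* (−1.07 ± 0.08) fell more in ATMs, and *Gbp6* (1.05 ± 0.19) fell more in BM.

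For Combo against Vehicle, 9 of 10 genes differed between tissues (against 55.1% of all genes), and 7 of the 9 had the positive sign, that is, fell less in ATMs. The differences were greatest on chromosome 5, with 2.98 ± 0.21 for *Gbp6*, 2.52 ± 0.32 for *Gbp8*, 2.38 ± 0.15 for *Gbp9* and 1.79 ± 0.14 for *Gbp4*. *Gbp2* (1.65 ± 0.11), *Gbp7* (1.02 ± 0.12) and *Igtp* (0.73 ± 0.12) followed. *Gbp3* (−0.90 ± 0.12) and *Irgm1* (−0.37 ± 0.08) fell more in ATMs.

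**Figure D4:**
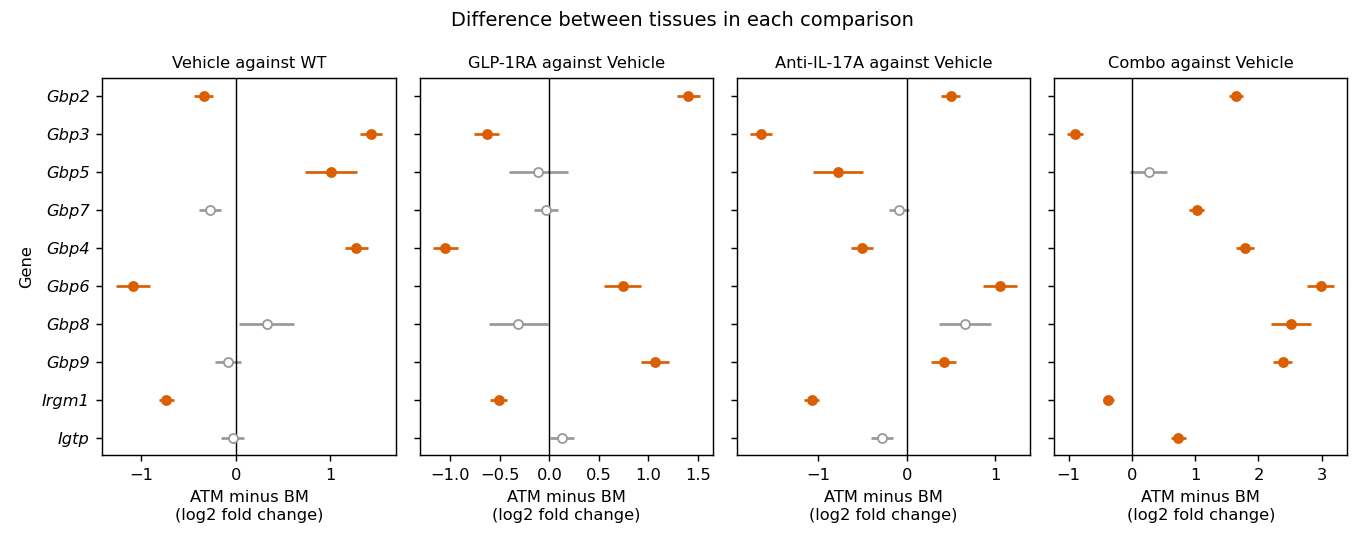
Difference between tissues in the log2 fold change (ATM minus BM) of each gene, for Vehicle against WT and each treated group against Vehicle. Points are estimates with SE bars; filled points passed an FDR of 0.05 and open points did not, and each panel has its own axis. With Combo, the 4 genes of chromosome 5 lie between 1.79 and 2.98.

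Likeness to the mean of the 10 members was ranked over the 15 libraries of a tissue. In BM, *Isg15* (Pearson's r = 0.998), which encodes a ubiquitin-like protein, *Mx1* (0.998), a related antiviral GTPase, *Phf11b* (0.997), *Ifit3* (0.997) and *Ctss* (0.996), which encodes cathepsin S, ranked highest of 10900 genes. In ATMs, *Ifi203* (0.994), the effector IRG gene *Tgtp2* (0.994), *Rtp4* (0.994), *Ly6a* (0.992) and *Apol10b* (0.992) did, of 12404. The points of a correlation are libraries of 5 groups, so that r mainly describes the group means, and no test was made. *Isg15*, for example, was at 1004 in WT, 32771 in Vehicle, 249 with the GLP-1R agonist, 346 with the antibody and 181 with Combo in BM. Among the members themselves, *Gbp8* was least like the mean in BM (r = 0.906), and *Irgm1* (0.922) and *Gbp8* (0.928) in ATMs.

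The remaining GBP and IRG genes of the tables were counted in the same comparisons. Of 15 measured in BM, 12 rose in Vehicle against WT, and 14, 13 and 13 fell against Vehicle with the GLP-1R agonist, the antibody and Combo. Of 16 in ATMs, 13 rose, and then 15, 14 and 14 fell. Across these comparisons, the share of all genes called in the same direction was at most 13.1%. The effector *Iigp1* rose by 4.55 ± 0.08 in BM and 2.06 ± 0.09 in ATMs, and *Tgtp1* by 4.88 ± 0.08 and 3.44 ± 0.14. The third regulatory IRG gene, *Irgm2*, rose by 1.73 ± 0.05 and 1.70 ± 0.13. In ATMs *Irgm2* was at 2309.9 in WT, 7515 in Vehicle, 1143 with the GLP-1R agonist, 959 with the antibody and 1257 with Combo. *Irgq*, a distant relative that interferon is not known to induce, was at 0.08 ± 0.07 and −0.39 ± 0.30 in Vehicle against WT and was not called. *Gbp2b* (also called *Gbp1*), measured in ATMs only, was at 129 in WT, 128 in Vehicle, 20.8 with the GLP-1R agonist, 24.2 with the antibody and 73.5 with Combo and was not called in Vehicle against WT (−0.01 ± 0.98). *Tgtp1* and *Tgtp2* are near-identical copies, so that the level of either is uncertain. The median of the list in BM was 3.35 in Vehicle against WT and −5.64 in Combo against Vehicle, or −4.79 in the latter with 3 genes that were at or under 3 counts in every Combo library set to the bound which that floor allows.

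Mx proteins are dynamin-like relatives of the GBPs, and atlastins are relatives that shape the endoplasmic reticulum. *Mx1* (4.83 ± 0.05 in BM and 6.33 ± 0.42 in ATMs) and *Mx2* (4.32 ± 0.09 and 4.11 ± 0.21) rose in Vehicle, whereas *Atl1*, *Atl2* and *Atl3* were not called there in either tissue (−0.89 to −0.17 in ATMs).

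Of the IFN-γ pathway, the ligand *Ifng* behaved differently in the 2 tissues. In BM it was at 27.9 in WT, 129.5 in Vehicle, 10.1 with the GLP-1R agonist, 21.9 with the antibody and 4.15 with Combo, and it rose in Vehicle against WT (2.22 ± 0.26) and fell with each treatment. In ATMs it was at 577 in WT, 486 in Vehicle, 896 with the GLP-1R agonist, 1297 with the antibody and 1966 with Combo, so that it was not called in Vehicle against WT (−0.25 ± 0.17) and rose with the antibody (1.42 ± 0.17) and Combo (2.01 ± 0.18) against Vehicle, where the GBP genes fell. Of its inducers and regulators, *Ifng* was the 1 of 5 measured genes that rose in BM, and *Tbx21*, which encodes T-bet, was the 1 of 6 that rose in ATMs (1.05 ± 0.13). Of all genes, 9.44% were called higher in BM and 12.5% in ATMs. Counting both directions, 2598 of 13353 and 6034 of 17059 were called. Markers of T and NK cells, the main sources of the ligand, summed to 279–289 CPM in WT BM, 529.7–537 in Vehicle and 188–191 in Combo, and in ATMs to 359.5–377, 389.6–413 and 1087–1116. The rise of the sum in Vehicle BM came from few genes, *Gzmb* alone being at 6.70 CPM in WT and 241 in Vehicle, whereas 8 of 12 markers had a lower estimate there (3 called higher and 1 lower, median −0.32). In ATMs, 1 of 12 was called higher and 7 lower (median −1.09). Their part in the levels of the GBP and IRG genes was not tested.

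Of 8 receptors, kinases and inhibitors of the pathway, 2 were called in Vehicle against WT in BM, as were 2598 of all 13353 genes, both of them feedback inhibitors, *Socs1* (2.03 ± 0.09) and *Socs3* (1.26 ± 0.05), and 2 in ATMs, against 6034 of 17059, *Ifngr2* (1.33 ± 0.08) up and *Socs3* (−1.41 ± 0.04) down. Without the fold limit, all 8 passed the FDR in BM and 7 in ATMs. Of 9 transcription factors, 3 rose and 1 fell in BM, and 7 rose and 1 fell in ATMs. *Irf7*, the interferon amplifier, rose by 4.49 ± 0.04 in BM and 5.52 ± 0.07 in ATMs, and *Stat2* by 3.21 ± 0.03 and 3.26 ± 0.14. *Irf1*, which is needed for full GBP induction, was at 0.96 ± 0.03 in BM, short of the fold limit, and rose by 1.37 ± 0.06 in ATMs. *Ciita*, the master regulator of MHC class II, was the gene that fell in both (−1.41 ± 0.09 and −3.27 ± 0.23).

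Targets of IFN-γ outside the GTPase families rose in Vehicle against WT for 13 of 16 genes in BM and for 14 of 17 in ATMs, where 2 fell. The shares of all genes called higher were 9.44% in BM and 12.5% in ATMs. The chemokine gene *Cxcl9* rose by 6.53 ± 0.10 and 7.75 ± 0.12. *Cxcl11* had 0 counts in each WT library of BM and was at least 98.1-fold higher in Vehicle, against a floor of 3 counts per library. The genes that fell in ATMs were *Cd74* (−2.31 ± 0.04) and *H2-Aa* (−2.32 ± 0.04), which serve MHC class II presentation and depend on *Ciita*.

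The type I interferon-stimulated genes (ISGs) moved without exception. All 18 rose in Vehicle against WT in both tissues, and all 18 fell against Vehicle in each of the 3 treated groups of both tissues. The share of all genes called in the same direction was at most 13.1% in these comparisons. The median log2 fold change of the 18 in Vehicle against WT was 3.69 in BM and 4.48 in ATMs, beside 2.61 and 3.26 for the 10 GBP and IRG genes. *Rsad2*, which encodes viperin, was at 7048 in WT, 203260.0 in Vehicle, 7930.1 with the GLP-1R agonist, 3499 with the antibody and 10283 with Combo in ATMs. *Ifnb1*, the type I ligand, was measured in ATMs only, at 58.2 in WT, 1353 in Vehicle, 638 with the GLP-1R agonist, 46.5 with the antibody and 105 with Combo, and it rose in Vehicle (4.54 ± 0.35). The sensors *Ifih1* (2.82 and 3.25), *Ddx58* (2.13 and 2.62) and *Tlr3* (2.37 and 2.03) rose in both tissues, and the receptor genes *Ifnar1* and *Ifnar2* were called in neither.

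**Figure D5:**
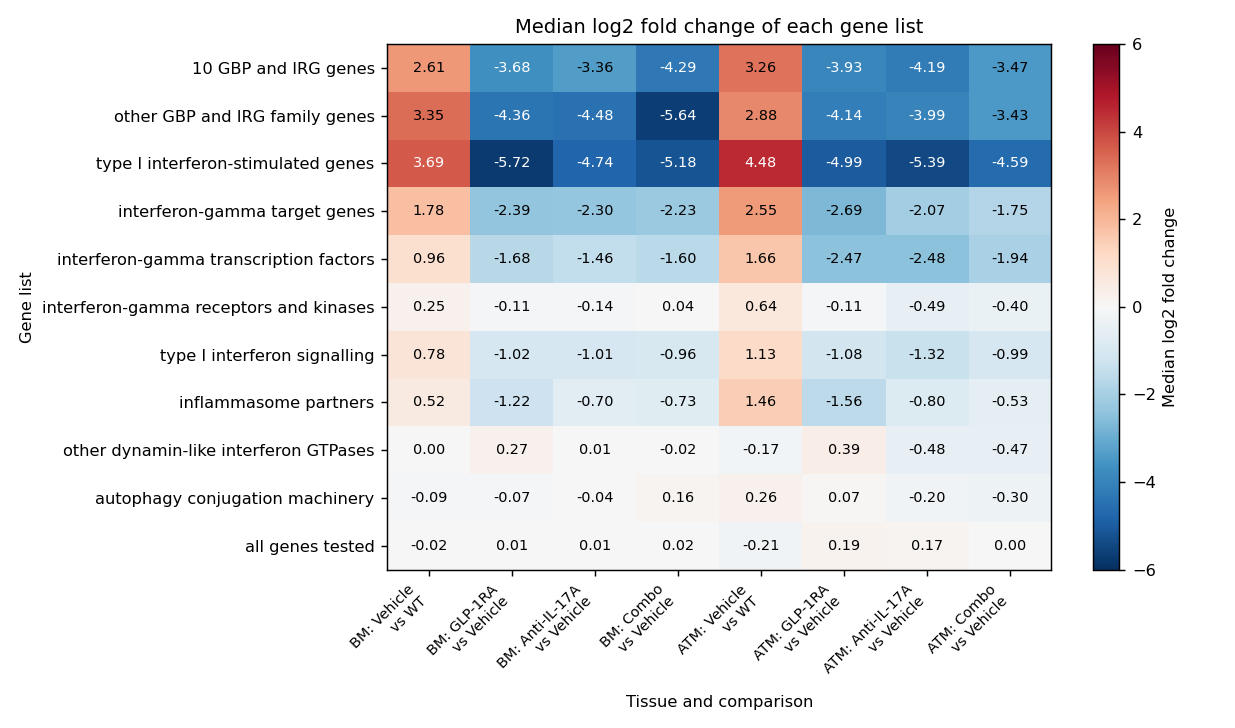
Median log2 fold change of the 10 genes and of each gene list (rows) in the 4 main comparisons of each tissue (columns), with the median of all genes tested in the last row. Colour and numbers give the same value. The GBP and IRG lists and the type I ISGs have medians from 2.61 to 4.48 in Vehicle against WT, and the receptors and autophagy genes stay between −0.09 and 0.64. The list of other GBP and IRG genes in BM reads −4.79 for Combo and −4.40 for the antibody with genes at or under 3 counts set to their bounds.

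GBPs act with the inflammasome and with the autophagy conjugation machinery. Of 10 inflammasome genes, 1 rose and 2 fell in BM in Vehicle against WT, and 6 rose in ATMs. In this comparison 9.44% of all genes were called higher in BM and 12.5% in ATMs, and 2598 of 13353 and 6034 of 17059 in either direction. *Casp4*, which encodes caspase-11, the lipopolysaccharide sensor downstream of the GBPs, rose in both (2.13 ± 0.05 and 2.56 ± 0.14) and fell in every treated group. *Il1b* fell in BM (−3.17 ± 0.04) and rose in ATMs (2.68 ± 0.07), where it was at 11591 normalized counts with Combo against 16812 in Vehicle and 2621 in WT, unlike the GBP genes. Of 12 autophagy genes, which help to load GBPs and IRGs onto vacuoles, none was called in BM and 1, *Sqstm1* (1.32 ± 0.02), rose in ATMs in Vehicle against WT.

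The sex-linked genes also differed between groups. *Xist*, which is expressed from the inactive X chromosome, was at 1.58 in WT, 6544 in Vehicle, 2.17 with the GLP-1R agonist, 98.4 with the antibody and 3609.9 with Combo in BM and 16.3 in WT, 1249.6 in Vehicle, 0 with the GLP-1R agonist, 13.5 with the antibody and 1129 with Combo in ATMs. The Y-linked gene *Eif2s3y* was at 2548 in WT, 1111 in Vehicle, 2256 with the GLP-1R agonist, 2299 with the antibody and 161 with Combo in BM. *Xist* was therefore high in Vehicle, where the GBP and IRG genes were high, and also in Combo, where they were low. The labels give no sex for a single sample, and the part of sex in the GBP and IRG levels was not tested.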

How the data were processed

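The authors aligned paired-end, unstranded reads of polyadenylated RNA to mm10 with STAR 2.7.2a and counted them on GENCODE M22 genes with featureCounts 2.0.1, leaving out reads that map to several places and crediting a read on several genes to each of them. The deposited values are read counts per gene, not normalized, in 1 table per tissue. No gene had fewer counts than 55 in BM or 54 in ATMs when its libraries were added up, so genes with few counts had been left out earlier.

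The tests were made in R 4.3.3 with the quasi-likelihood F test of edgeR 4.0.16. Libraries were scaled by TMM, the filterByExpr filter removed 0 genes, and a robust fit covered all 15 libraries of a tissue. Adjusted p-values are Benjamini-Hochberg values over all genes of the table, and all tests were two-sided. Calls needed an FDR below 0.05 and a log2 fold change beyond 1. The difference between tissues was an interaction in 1 fit of all 30 libraries. For normalized counts, each count was scaled from its library's effective size to the average of the tissue. Likeness was Pearson's r of log2 CPM (prior count 2) over the genes with a mean log2 CPM of at least 1. The alternatives were DESeq2 1.42.0, its size factors, limma 3.58.1 for the tissue difference, other filters, a replicate block and each library left out, and the fits were tested on simulated data.

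The genes described, the gene lists and the marker lists were chosen with earlier results of these data known. Named genes are the 10 members, genes of those lists, 5 genes per tissue most like the members, and sex-linked and marker genes. Gene positions and exon lengths come from GENCODE M21, and promoter sequences from RefSeq. P-values rest on the spread between libraries within groups, estimated over all groups of a fit together and moderated across genes. They do not rest on the spread of the groups compared alone. The labels name the 3 libraries of a group biological replicates, and the sources used here do not say whether BM of several mice was pooled. Counting error is largest in BM with Combo, where *Gbp8* had 19 to 22 counts a library, *Gbp6* 20 to 35, *Gbp4* 61 to 83 and *Gbp5* 79 to 105. Replicate numbers did not pair samples, the correlation of same-numbered libraries being −0.030 to 0.052 in BM and −0.022 to 0.034 in ATMs.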

Additional observations from a re-analysis of the deposited data

Results flagged for a closer look

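The change of a member differed between ATMs and BM past an FDR of 0.05 and by more than 1 on the log2 scale in 16 cases (edgeR quasi-likelihood test of the interaction, given as ATM minus BM). The share of all genes whose change differed between tissues was 53.4% to 56.4%, so single differences were common. For Vehicle against WT the difference was 1.43 for *Gbp3*, 1.27 for *Gbp4*, 1.00 for *Gbp5* and −1.09 for *Gbp6*. With the GLP-1R agonist against Vehicle it was 1.40 for *Gbp2*, 1.07 for *Gbp9* and −1.05 for *Gbp4*. With the antibody it was 1.05 for *Gbp6*, −1.07 for *Irgm1* and −1.65 for *Gbp3*. With Combo it was 2.98 for *Gbp6*, 2.52 for *Gbp8*, 2.38 for *Gbp9*, 1.79 for *Gbp4*, 1.65 for *Gbp2* and 1.02 for *Gbp7*. BM was whole marrow and the ATMs a sorted fraction, and cell makeup and tissue cannot be told apart in these differences.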

How the results depend on the processing

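All 10 members were called in Vehicle against WT and in each treated group against Vehicle in both tissues under every alternative, with any library left out included. The counts against WT, between treatments and between tissues depended on a setting. With no limit on the fold change, 10 members were called in BM for Combo, the GLP-1R agonist and the antibody against WT, 9 for Combo against the GLP-1R agonist, 10 for Combo against the antibody and 7 for the GLP-1R agonist against the antibody. In ATMs the counts were then 4, 9 and 10 for Combo, the GLP-1R agonist and the antibody against WT, 9 for Combo against either agent and 1 between the single agents. With at least 10 counts required in every library, the GLP-1R agonist against the antibody gave 0 in BM. Leaving out 1 library gave 0 to 1 there, 0 to 1 for Combo against the antibody in ATMs, and 1 to 3 and 1 to 2 for the GLP-1R agonist and the antibody against WT in ATMs. The members whose change differed between tissues were then 6 to 7 for Vehicle against WT, 6 to 7 for the GLP-1R agonist, 6 to 8 for the antibody and 9 for Combo, with 7 for Vehicle against WT by limma and 8 for the antibody by limma or with the size factors of DESeq2. Fitting only the 6 libraries compared gave 4 for Combo against the antibody in BM.

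Reversed signs concerned estimates near 0. In BM, *Gbp5* in Combo against the GLP-1R agonist was −0.01 and ranged from −0.10 to 0.11 when 1 library was left out, turning to 0.07, 0.00037 and 0.11 without 3 of them. In ATMs, *Gbp2* in Combo against WT was −0.01 and turned to 0.0021 with the stricter filter, 0.028 with only the 6 libraries compared, and to 0.0068 and 0.042 without 2 of the libraries, over a range of −0.087 to 0.042. *Gbp6* in the same comparison was 0.04, with a range of −0.082 to 0.14. A block for the replicate number changed no count and no call, with 10 members called in Vehicle against WT under the replicate block in both tissues, and within a tissue DESeq2 and its size factors changed none. The scaling of DESeq2 shifted log2 fold changes by at most 0.052.

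The precision is limited by 3 libraries a group and by the wider spread of ATMs.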
